A study of Homo sapiens with 10 samples.

Results

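Expression of 9 transcription factors of the ETS family (FLI1, ETS1, ELF3, ELF5, EHF, ETV6, ELK3, ELK4 and SPI1) was examined in metastatic derivatives of SW620, a human cell line from a colon cancer, and in the parental line. Every row of the expression table annotated to 1 of these symbols and to no other gene was taken, which gave 94 rows among the 54806 rows with a single symbol and 9 of 4713 genes. A row is 1 feature of the array, taken here as a probe set, and its value is a log2 expression level. All 3 groups were SW620 cells grown in DMEM with fetal bovine serum and profiled from total RNA on an Affymetrix HG1.0ST chip. Liver derivatives (3 arrays) and lung derivatives (3 arrays) were taken from metastases formed in nude mice of the balb/c strain and expanded in culture, and parental cells (4 arrays) are labelled as the parental line. The labels call the arrays biological replicates but do not give the number of mice, metastases or clones behind each derivative, nor how human cells were separated from mouse cells, so p-values measure the spread between these arrays only.

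ETS factors share a DNA-binding domain that recognises a GGAA core. FLI1 and ETS1 are activators best known from endothelial and blood cells, and SPI1 (PU.1) directs myeloid and B-cell differentiation. ELF3, EHF and ELF5 form the epithelium-specific branch, with ELF3 and EHF expressed in gut epithelium and ELF5 best known from mammary and lung epithelium. ELK3 and ELK4 are ternary complex factors that bind with serum response factor (SRF) and respond to ERK signalling, and ETV6 is a repressor required in haematopoiesis.

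Among the 9 factors, the liver derivatives gave the clearest pattern: FLI1 was higher and the epithelial factors ELF3 and EHF were lower than in parental cells. Each gene was summarised as the mean of all its rows and tested with limma, with Benjamini-Hochberg adjustment over all 4713 genes, and a change was called at an adjusted p under 0.05. In liver derivatives 1 factor was called higher and 2 lower, 3 of 9, against 7.83% of all genes called (4.33% higher and 3.50% lower). Lung derivatives had 5 of 9 called against parental cells (FLI1, ELF5 and ELK3 higher, ELF3 and ELK4 lower), where 30.1% of all genes were called (12.9% higher and 17.3% lower). Between lung and liver derivatives 4 of 9 were called (ELF3, EHF and ELK3 higher and FLI1 lower in lung derivatives), against 19.9% of all genes (8.02% higher and 11.9% lower). Arrays of the 2 groups did not overlap for 4 of the 9 factors in liver against parental, for 5 in lung against parental and for 7 in lung against liver, where 20.2%, 32.3% and 46.0% of all genes did not overlap. ETS1, ETV6 and SPI1 were called in none of the 3 comparisons. The liver calls were the same 3 factors whichever array was left out, while in lung against parental FLI1 alone was called without parental array 1 or 2, FLI1 and ELF5 without lung array 1, and 6 factors without parental array 4. Between lung and liver derivatives FLI1 alone was called when any 1 liver array, lung array 1 or lung array 3 was left out. Without lung array 2 the calls there were EHF, ETS1 and FLI1. Quantile normalization of the table again gave 3 higher and 1 lower in lung against parental, and re-centring each array on its median gave 3 higher and 0 lower. The median absolute log2 difference of the 9 factors was 0.14 in liver against parental, where that of all genes was 0.086, and in lung against parental it was 0.21, where that of all genes was 0.16. Both comparisons with parental cells use the same 4 parental arrays and are therefore not independent.

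Parental array 4 stood closer to the lung arrays than the other parental arrays did. Over all annotated rows its correlation with the lung arrays was 0.963 to 0.964, while that of parental arrays 1 to 3 with the lung arrays was 0.940 to 0.957, and its correlation with its own group was 0.965 to 0.968 where parental arrays 1 to 3 correlated at 0.986 to 0.988 with each other. The labels name no batch. The lung differences of the factors and the lung counts of the gene lists are therefore also given without parental array 4, and against parental array 4 alone from a fit in which that array and the lung arrays form 1 set (the array set). Fewer cells of a type and less RNA per cell cannot be told apart in these bulk samples.

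**Figure D1:**
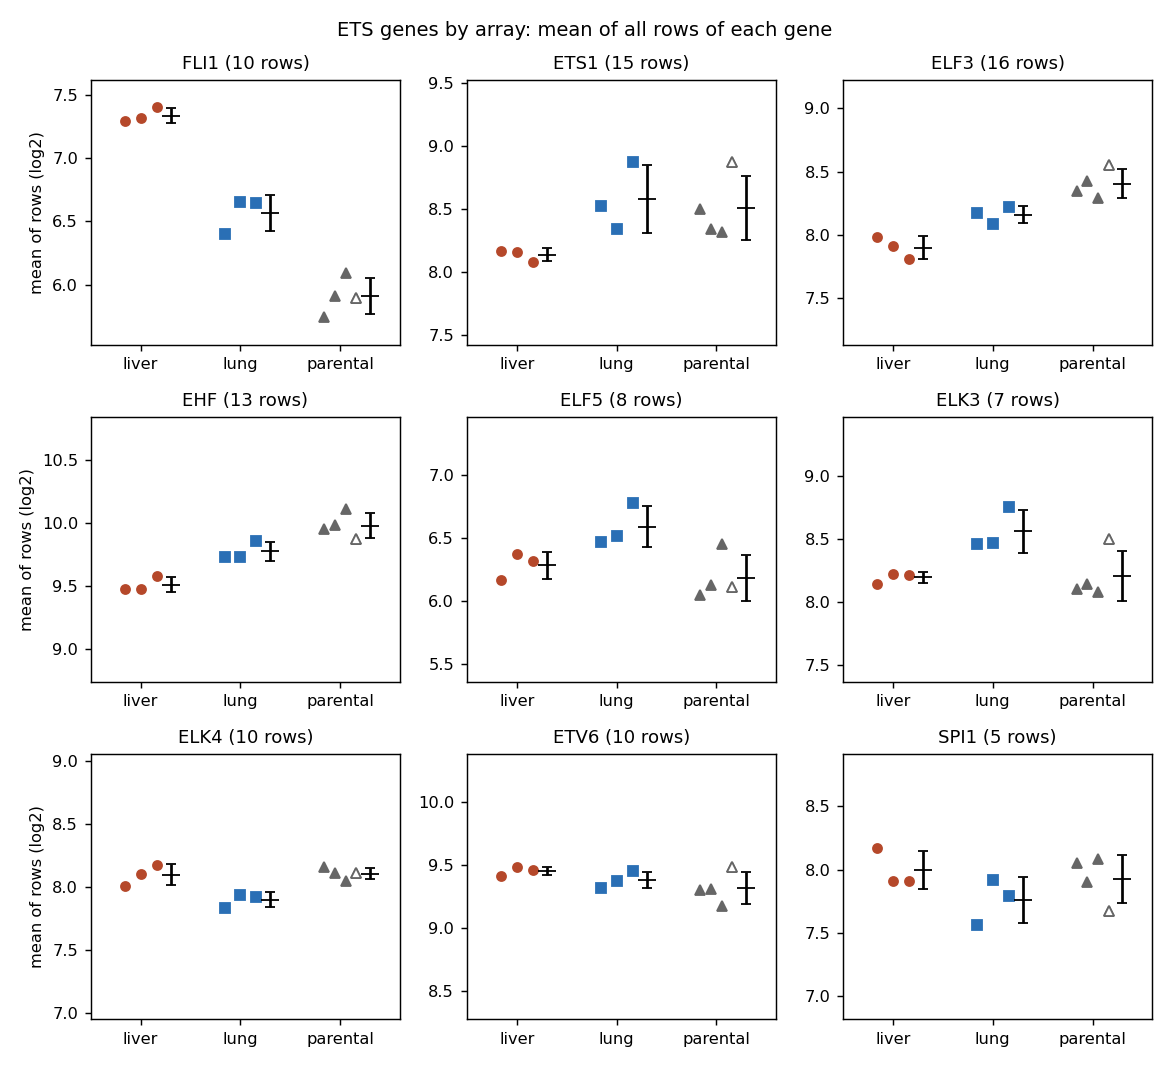
Log2 expression level of each of the 9 ETS factors (mean of its rows) in every array, with liver, lung and parental arrays side by side, group means as horizontal lines and parental array 4 as an open triangle. FLI1 lies at 7.30 to 7.40 in liver derivatives, above the lung arrays (6.40 to 6.65) and the parental arrays (5.74 to 6.09).

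FLI1 rose in both derivatives and most in liver. Its level was 7.30, 7.32 and 7.40 in the liver arrays and 6.40, 6.65 and 6.64 in the lung arrays, against 5.74, 5.91, 6.09 and 5.89 in the parental arrays. No values of the 3 groups overlapped. In liver derivatives FLI1 averaged 7.34 ± 0.06 (SD, n = 3) against 5.91 ± 0.14 in parental cells (SD, n = 4), a log2 difference of 1.43 (SE 0.09, 95% interval 1.23 to 1.63, limma adjusted p = 2.36e-06), or 2.70-fold. By size of rise it ranked 16 in liver and 88 in lung among the 4713 genes of the table, which lie almost all on 4 chromosomes. FLI1 is a dim gene here, with a mean over all arrays in the lowest 20% of genes. In lung derivatives it averaged 6.57 ± 0.14 (SD, n = 3), 0.66 above parental cells (SE 0.09, limma adjusted p = 0.000757), or 1.58-fold. FLI1 was 0.66 higher with all parental arrays, 0.65 higher without parental array 4 (adjusted p = 0.000830) and 0.68 higher against parental array 4 alone (adjusted p = 0.0211). Lung derivatives held less FLI1 than liver derivatives (lung minus liver -0.77, SE 0.10, adjusted p = 0.00478), and this difference was -0.75 with an adjusted p of 0.191 in the fit with the array set.

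The FLI1 rows did not all move. Of its 10 rows on chromosome 11, 5 were called higher in liver derivatives, against 2.20% of all annotated rows called in either direction and 1.15% called higher, and 7 had every liver array above every parental array, as 8.59% of all rows did. Row changes ran from -0.32 to 3.18 with a median of 1.80. The row with the largest change, row 10 in the order of the array's row numbers, had 6.28, 6.83 and 7.35 in liver arrays, against 3.79, 3.89, 3.30 and 3.57 in parental arrays (log2 difference 3.18, adjusted p = 0.00253). The lung arrays had 4.28, 5.58 and 5.85 (difference from parental 1.60, adjusted p = 0.0282), between the other groups. The brightest row, row 4, had 9.25, 9.21 and 9.15 in liver arrays and 7.79, 8.23 and 7.79 in lung arrays, against 7.49, 7.94, 7.51 and 7.10 in parental arrays. Against parental cells the liver difference of that row was called (1.69, adjusted p = 0.00194), while the lung arrays overlapped the parental ones (0.43, adjusted p = 0.159). At the other end, row 2 had 7.42, 7.21 and 6.86 in liver arrays, against 7.67, 7.39, 7.33 and 7.58 in parental arrays (-0.32, adjusted p = 0.770), so not every FLI1 row carried the change. In lung derivatives 2 of the 10 rows were called higher than in parental cells, where 13.1% of all annotated rows were called and 5.15% were called higher. Against liver derivatives 5 of 10 FLI1 rows were lower in lung derivatives (-0.89 to -1.58), where 12.6% of all rows were called and 7.61% were called lower. The positions of the rows along the transcripts were not used here.

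**Figure D2:**
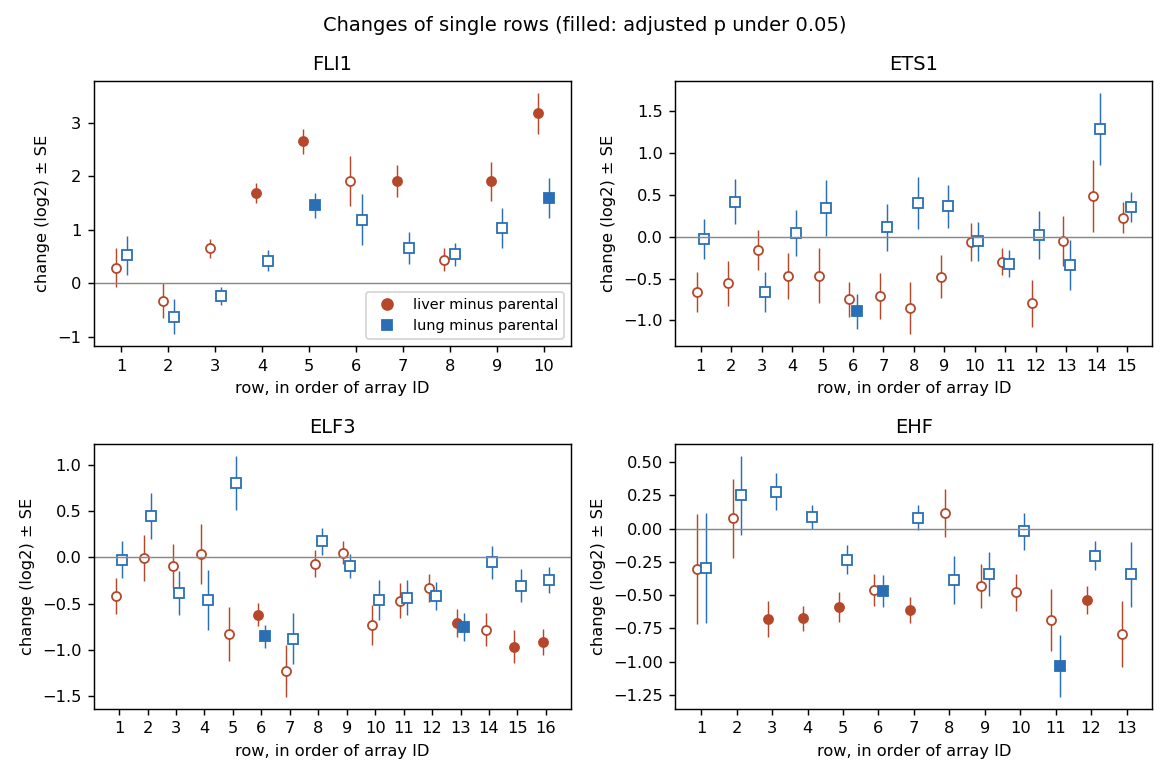
Log2 difference from parental cells (± SE) of every row of FLI1, ETS1, ELF3 and EHF, in the order of the array's row numbers, for liver and lung derivatives, with filled symbols where the adjusted p is under 0.05. FLI1 rows span -0.32 to 3.18 in liver derivatives, and most ELF3 and EHF rows lie below 0 there.

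ETS1, which lies next to FLI1 on chromosome 11 and is its close relative, did not pass the test in any comparison. Its level was 8.17, 8.16 and 8.08 in liver arrays and 8.53, 8.34 and 8.87 in lung arrays, against 8.51, 8.34, 8.32 and 8.87 in parental arrays. All liver arrays lay below all parental arrays, a difference of -0.37 (SE 0.14, 95% interval -0.69 to -0.05, limma adjusted p = 0.182). None of its 15 rows was called in liver derivatives by limma, although 13 had a negative difference, 9 lay wholly below the parental arrays and 5 were lower at an unadjusted p under 0.05. Of all rows, 7.56% lay below and 12.03% had an unadjusted p under 0.05 in either direction. The lung arrays spanned the parental range (difference 0.07, 95% interval -0.25 to 0.39, adjusted p = 0.734), and parental array 4 had the same rounded level as the highest lung array. Without parental array 4 the lung difference was 0.19 (adjusted p = 0.214) and against it alone -0.29 (adjusted p = 0.304). Every lung array lay above every liver array (lung minus liver 0.44, adjusted p = 0.0623). That difference was called with only the compared groups (adjusted p = 0.0383), with the brightest row (1.25, adjusted p = 0.0240), with the replicate block (adjusted p = 0.0288) and without lung array 2 (0.56, adjusted p = 0.0397), and it was -0.044 with the array set in the fit. In the brightest ETS1 row, row 8, lung arrays had 10.41, 10.15 and 10.89, against 9.32, 9.36 and 9.01 in liver arrays (1.25, adjusted p = 0.0407), and the parental arrays had 9.79, 9.74, 9.83 and 10.98. Row 6 was lower in lung derivatives than in parental cells (-0.89, adjusted p = 0.0279). Each was the 1 of 15 rows called in its comparison, where 12.6% (lung against liver) and 13.1% (lung against parental) of all rows were called.

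The measured neighbours of FLI1, examined after its values were seen, were not called in liver derivatives. In the order of the RefSeq gene table (GRCh38.p14), the log2 difference between liver and parental cells was 0.14 for KIRREL3, -0.03 for KIRREL3-AS3, -0.37 for ETS1, 1.43 for FLI1, -0.03 for KCNJ1 and -0.10 for KCNJ5. In lung derivatives the potassium channel genes KCNJ1 (0.47, adjusted p = 0.0105) and KCNJ5 (0.49, adjusted p = 0.0189) were called higher than in parental cells, as was the adhesion gene KIRREL3 (0.31). All 3 were called without parental array 4, and none was called against that array alone (0.30, 0.15 and 0.30 for KCNJ1, KCNJ5 and KIRREL3, adjusted p = 0.268, 0.558 and 0.260).

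ELF3 fell in liver derivatives and by a smaller amount in lung derivatives. Its level was 7.98, 7.91 and 7.80 in liver arrays and 8.17, 8.08 and 8.22 in lung arrays, against 8.35, 8.43, 8.29 and 8.55 in parental arrays. The order was liver, lung, parental with no overlap between any pair of groups. Liver derivatives averaged 7.90 ± 0.09 (SD, n = 3) and parental cells 8.40 ± 0.11 (SD, n = 4), a log2 difference of -0.51 (SE 0.08, 95% interval -0.67 to -0.34, limma adjusted p = 0.00149), 1.42-fold lower. In lung derivatives the mean was 8.16 ± 0.07 (SD, n = 3), and the difference from parental cells was -0.25 (SE 0.08, adjusted p = 0.0328). It was -0.20 without parental array 4 (adjusted p = 0.0401) and -0.40 against that array alone (adjusted p = 0.0420). Re-centring each array on its median (-0.20, adjusted p = 0.0663) or using the brightest row (-0.06, adjusted p = 0.831) ended the call in lung derivatives. Lung derivatives held more ELF3 than liver derivatives, by 0.26 (SE 0.08, adjusted p = 0.0465), and by 0.06 with the array set in the fit (adjusted p = 0.888).

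Rows of ELF3 moved mostly together in liver derivatives. Of 16 rows on chromosome 1, 14 had a negative difference, 9 lay wholly below the parental arrays and 4 were called lower, where 7.56% of all rows lay below and 1.04% were called lower. Row changes ran from -1.23 in row 7 (adjusted p = 0.0634) to 0.05 in row 9. In the brightest row, row 14, liver arrays had 9.64, 9.51 and 9.08 and lung arrays 10.07, 9.97 and 10.37, against 10.14, 10.24, 9.93 and 10.48 in parental arrays. That row separated liver from the other groups (-0.78 against parental cells, adjusted p = 0.0638 over all rows) but not lung from parental cells (-0.06). The 2 rows called lower in lung derivatives, row 6 (-0.86) and row 13 (-0.75), were called lower in liver derivatives too, where 7.99% of all rows were called lower in lung derivatives.

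EHF, the other epithelial factor expressed in gut, also fell in liver derivatives. Its level was 9.47, 9.48 and 9.58 in liver arrays and 9.73, 9.73 and 9.86 in lung arrays, against 9.95, 9.98, 10.11 and 9.87 in parental arrays. As for ELF3, liver arrays were lowest, lung arrays intermediate and parental arrays highest, with the lowest parental array (9.87, array 4) next to the highest lung array (9.86). Liver derivatives averaged 9.51 ± 0.06 (SD, n = 3) and parental cells 9.98 ± 0.10 (SD, n = 4), a log2 difference of -0.47 (SE 0.07, 95% interval -0.62 to -0.31, limma adjusted p = 0.00151), 1.38-fold lower. In lung derivatives the mean was 9.77 ± 0.07 (SD, n = 3) and the difference from parental cells, -0.20 (95% interval -0.36 to -0.05), had an adjusted p of 0.0501. That difference was -0.24 without parental array 4 (adjusted p = 0.0172), and -0.10 against parental array 4 alone (adjusted p = 0.562). Lung derivatives exceeded liver derivatives by 0.26 (SE 0.08, adjusted p = 0.0344), and by 0.41 with the array set in the fit (adjusted p = 0.324).

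The rows of EHF split in lung derivatives. In liver derivatives 11 of 13 rows had a negative difference, 9 lay wholly below the parental arrays and 5 were called lower (-0.54 to -0.68), where 7.56% of all rows lay below and 1.04% were called lower. The brightest row, row 7, had 11.34, 11.33 and 11.26 in liver arrays and 12.02, 11.98 and 12.01 in lung arrays, against 11.79, 11.95, 12.08 and 11.85 in parental arrays. In it the liver arrays lay apart (-0.61 against parental cells, adjusted p = 0.0110) and the lung arrays within the parental range (0.08, adjusted p = 0.588). Rows 6 and 11 were lower in lung derivatives than in parental cells (-0.47 and -1.03), where 7.99% of all rows were called lower. Against liver derivatives, rows 3, 4 and 7 were higher in lung derivatives, by 0.69 to 0.96, where 5.02% of all rows were called higher. The mean of rows in lung derivatives thus averages rows near the parental level with rows below it.

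Because ELF3 and EHF fell together in liver derivatives, their promoter windows (RefSeq, GRCh38.p14, 250 bases before to 50 after each start, in transcript direction) are given here with every GGAA or its reverse complement TTCC in capitals, the core that ETS factors recognise. The ELF3 window is chr1:202010337-202010636 on the + strand, and EHF has 2 starts, at chr11:34624007-34624306 and chr11:34632316-34632615, both on the + strand.
ELF3 start: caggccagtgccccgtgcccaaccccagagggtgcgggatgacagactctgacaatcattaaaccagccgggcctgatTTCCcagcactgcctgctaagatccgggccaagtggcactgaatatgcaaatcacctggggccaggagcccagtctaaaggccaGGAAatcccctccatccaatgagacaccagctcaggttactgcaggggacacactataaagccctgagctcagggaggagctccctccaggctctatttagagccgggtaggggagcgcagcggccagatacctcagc
EHF start 1: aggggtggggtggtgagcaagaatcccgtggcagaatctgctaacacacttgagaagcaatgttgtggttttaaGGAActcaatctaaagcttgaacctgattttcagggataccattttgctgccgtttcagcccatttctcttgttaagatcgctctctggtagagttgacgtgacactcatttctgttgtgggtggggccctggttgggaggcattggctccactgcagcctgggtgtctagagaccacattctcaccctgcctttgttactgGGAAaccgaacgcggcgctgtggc
EHF start 2: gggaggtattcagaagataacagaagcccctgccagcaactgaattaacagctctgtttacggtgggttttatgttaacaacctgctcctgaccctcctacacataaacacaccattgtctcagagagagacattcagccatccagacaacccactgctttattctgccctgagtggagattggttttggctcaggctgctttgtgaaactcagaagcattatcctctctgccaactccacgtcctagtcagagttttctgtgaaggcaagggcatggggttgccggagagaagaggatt
The ELF3 window holds 2 matches, the EHF start 1 window 2 and the EHF start 2 window 0. GGAA on either strand is in 95.5% of 35116 promoter windows of this length, with a median of 3 matches and quartiles of 2 and 5. Of the 9 factors, 6 matched the promoter table with 8 windows, and FLI1, ETS1 and SPI1 are named only. The longer motif CCGGAAGT, searched on both strands and containing GGAA, was in 1 of the 8 windows, that of ELK4 (chr1:205631962-205632261, - strand), and in 4.14% of all windows. A match is a description of the letters and not a binding site.

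ELF5, which neighbours EHF on chromosome 11, did not fall with it. Its level was 6.16, 6.37 and 6.31 in liver arrays and 6.47, 6.52 and 6.77 in lung arrays, against 6.04, 6.12, 6.45 and 6.11 in parental arrays. The liver arrays lay inside the parental range (difference 0.10, 95% interval -0.14 to 0.34, adjusted p = 0.704). All lung arrays lay above all parental arrays, the nearest of which was parental array 3. Lung derivatives averaged 6.59 ± 0.16 (SD, n = 3) and parental cells 6.18 ± 0.18 (SD, n = 4), a log2 difference of 0.41 (SE 0.11, limma adjusted p = 0.0181), 1.32-fold. It was 0.38 without parental array 4 (adjusted p = 0.0252) and 0.48 against parental array 4 alone (adjusted p = 0.121). Of 8 rows, 2 were called higher in lung derivatives, row 1 (1.06, adjusted p = 0.0400) and row 5 (0.68, adjusted p = 0.0333), where 5.15% of all rows were called higher. The brightest row, row 8, had 9.50, 9.55 and 9.48 in lung arrays, against 9.03, 9.03, 9.33 and 9.23 in parental arrays (0.36, adjusted p = 0.0501). As a mean of rows, ELF5 was in the lowest 20% of genes by mean over all arrays.

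Around EHF and ELF5, examined after the values were seen, the cell adhesion receptor gene CD44 was the other measured gene called lower in liver derivatives (-0.67, adjusted p = 0.00256), and it was lower in lung derivatives as well (-1.17, adjusted p = 6.03e-05, and -1.24 against parental array 4 alone, adjusted p = 0.00312). Between EHF and CD44, APIP (-0.33, adjusted p = 0.226) and PDHX (-0.01) were not called in liver derivatives. On the other side of ELF5, CAT, ABTB2 and NAT10 changed by -0.08, -0.04 and -0.10 in liver derivatives, none of them called. In lung derivatives NAT10 (-0.33, limma adjusted p = 0.00620) and ABTB2 (-0.25, adjusted p = 0.0418) were called lower, while CAT, APIP and PDHX were not called. Without parental array 4, NAT10, ABTB2 and PDHX (-0.20) were called lower. Against that array alone the differences of NAT10, ABTB2 and PDHX were -0.20, -0.13 and -0.02.

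**Figure D3:**
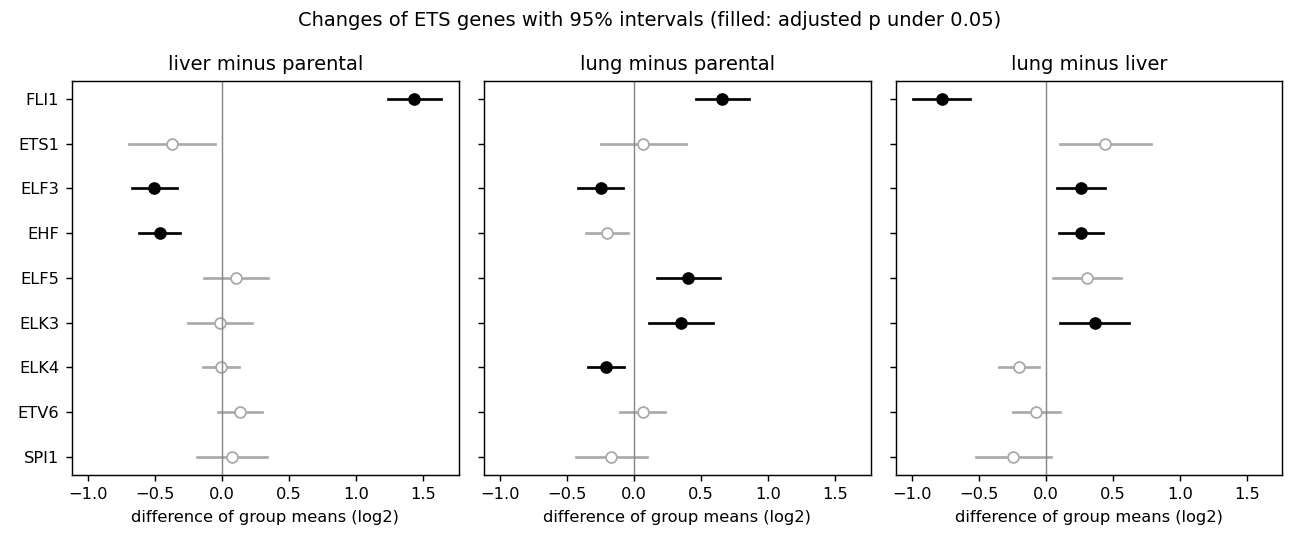
Log2 difference of each ETS factor (mean of its rows) with its 95% interval for liver minus parental, lung minus parental and lung minus liver. FLI1 has the largest differences, 1.43 in liver and 0.66 in lung derivatives, while ELF3 and EHF lie below 0 in both.

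The ternary complex factors moved in lung derivatives, in opposite directions. ELK3, a repressor that ERK signalling turns into an activator, had 8.14, 8.23 and 8.22 in liver arrays and 8.46, 8.47 and 8.75 in lung arrays, against 8.11, 8.15, 8.09 and 8.50 in parental arrays. Parental arrays 1 to 3 lay below every lung array and parental array 4 lay among them. The lung difference from parental cells was 0.35 (SE 0.11, limma adjusted p = 0.0323, 1.28-fold) with all arrays, 0.45 without parental array 4 (adjusted p = 0.00209) and 0.06 against that array alone (adjusted p = 0.781). None of its 7 rows was called by limma in that comparison. At an unadjusted p under 0.05, 3 were higher, where 31.97% of all rows passed in either direction. Liver derivatives did not differ detectably from parental cells (-0.01, 95% interval -0.25 to 0.23, adjusted p = 0.972). Lung minus liver was 0.36 (SE 0.12, adjusted p = 0.0483), and with the array set in the fit it was -0.03 (adjusted p = 0.962).

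ELK4 (SAP-1), the other ternary complex factor, had 8.01, 8.11 and 8.18 in liver arrays and 7.83, 7.94 and 7.93 in lung arrays, against 8.16, 8.11, 8.05 and 8.11 in parental arrays. Every lung array lay below every parental array. Lung derivatives averaged 7.90 ± 0.06 (SD, n = 3) and parental cells 8.11 ± 0.04 (SD, n = 4), a log2 difference of -0.21 (SE 0.06, limma adjusted p = 0.0279), 1.16-fold lower. The difference was also -0.21 without parental array 4 (adjusted p = 0.0252) and against it alone (adjusted p = 0.187), and re-centring each array on its median gave -0.17 (adjusted p = 0.0532). Of 10 rows, 2 were called lower in lung derivatives, where 7.99% of all rows were. The median row change there was -0.065, and 9 of the 10 rows had a negative difference. Row 3 had 3.51, 3.70 and 3.17 in lung arrays, against 4.54, 3.98, 4.49 and 4.17 in parental arrays (-0.84, adjusted p = 0.0357). These levels are near the lowest value of the table, 2.55, and the row counts fully in the ELK4 mean. Row 7 had 8.17, 8.48 and 8.82 in lung arrays, against 9.15, 9.16, 9.09 and 8.93 in parental arrays (-0.59, adjusted p = 0.0333). The brightest row, row 8, had 11.19, 11.40 and 11.47 in lung arrays, against 11.38, 11.58, 11.45 and 11.18 in parental arrays, with no separation (-0.04, adjusted p = 0.822).

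ETV6 was not called by its mean, while single rows of it were called in lung derivatives. It had 9.41, 9.48 and 9.46 in liver arrays and 9.32, 9.37 and 9.45 in lung arrays, against 9.30, 9.31, 9.17 and 9.48 in parental arrays, and the groups overlapped in all comparisons with parental cells. The differences were 0.14 in liver (95% interval -0.03 to 0.30, adjusted p = 0.391) and 0.06 in lung derivatives (95% interval -0.10 to 0.23, adjusted p = 0.532), with 0.12 in lung derivatives without parental array 4 and -0.10 against that array alone. Of its 10 rows on chromosome 12, row 2 was higher in lung derivatives, with 10.91, 10.69 and 11.25 in lung arrays against 10.17, 10.15, 10.11 and 10.67 in parental arrays (0.68, adjusted p = 0.0365). Row 10 was lower, with 7.83, 7.46 and 7.68 in lung arrays against 8.42, 8.36, 8.53 and 8.36 in parental arrays (-0.76, adjusted p = 0.00552). These 2 of 10 rows were called where 5.15% of all rows were called higher and 7.99% lower.

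SPI1 had 8.17, 7.91 and 7.91 in liver arrays and 7.56, 7.92 and 7.79 in lung arrays, against 8.05, 7.90, 8.08 and 7.67 in parental arrays. The groups overlapped throughout, and none of its 5 rows was called by limma in any comparison. At an unadjusted p under 0.05 were 0, 1 and 1 rows in liver against parental, lung against parental and lung against liver. Of all rows, 12.03%, 31.97% and 33.36% were. The SPI1 differences were 0.07 in liver (95% interval -0.19 to 0.33) and -0.17 in lung derivatives (95% interval -0.43 to 0.09). The lung difference was -0.25 without parental array 4 (adjusted p = 0.0804) and 0.088 against that array alone (adjusted p = 0.747).

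**Figure D4:**
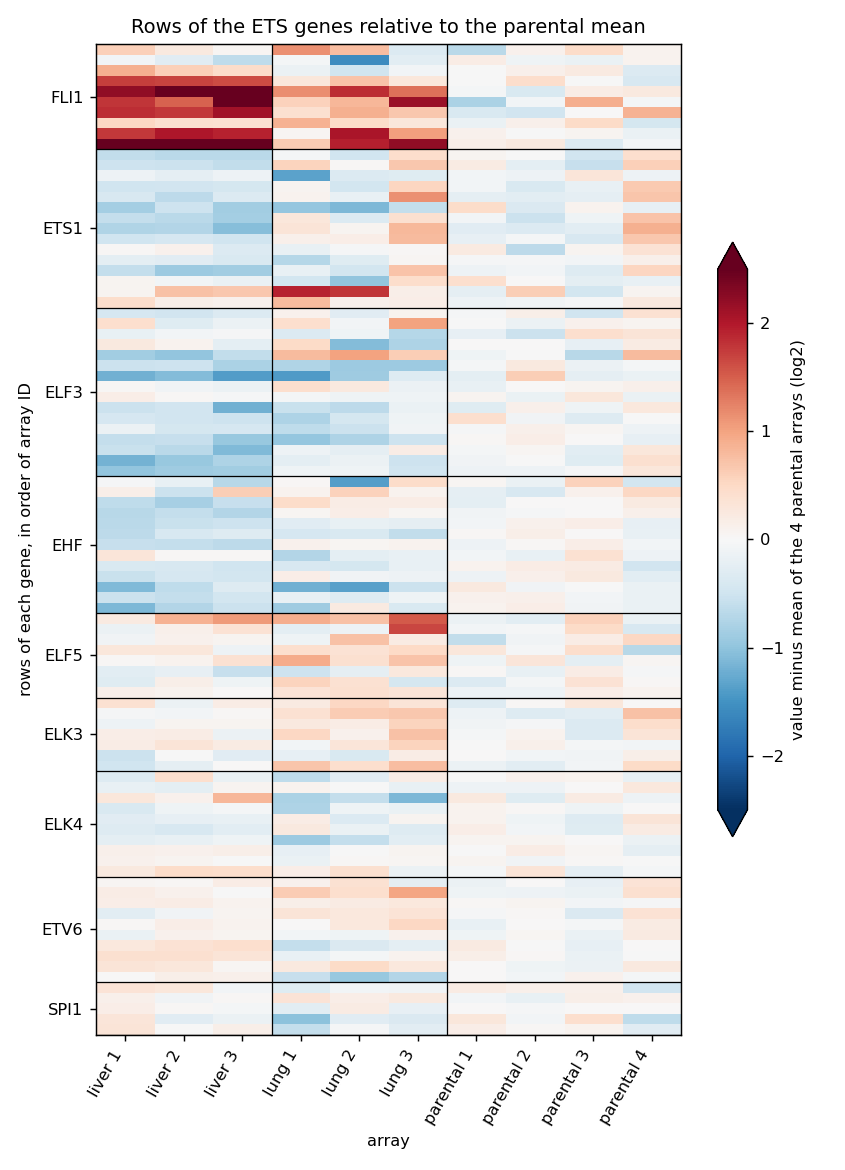
Log2 level of all 94 rows of the 9 ETS factors minus the row's parental mean, with 1 column per array, rows grouped by gene and colours ending at the limits of the scale bar. Most FLI1 rows are above 0 in the liver arrays and most ELF3, EHF and ETS1 rows below 0, with smaller differences in the ETV6 and SPI1 rows.

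Over the 94 rows together, 14 were called in liver derivatives (5 higher, all of FLI1, and 9 lower, 4 of ELF3 and 5 of EHF), 14.9% where the background was 2.20%. In lung derivatives 13 rows were called against parental cells (13.8%), close to the background of 13.1%, and 26 without parental array 4, when 16222 of the 56949 annotated rows were called, and between lung and liver derivatives 17 were called (18.1%, 8 higher and 9 lower) against 12.6%. Quantile normalization of the table again gave 12 higher and 8 lower there, and moved the share of higher among all called rows to 50.8% from 39.7%. With the array set in the fit, limma called 0 of the 94 rows in lung against parental and 0 in lung against liver. In each, 14 (14.9%) had an unadjusted p under 0.05, where 15.95% of all rows did in lung against parental and 8.57% in lung against liver. Without liver array 2 or 3 the count called in lung against liver was also 0. Rows of 1 gene share their transcript and are not replicates.

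Of 19 other ETS genes listed, 3 were measured: ETV3, a repressor, its relative ETV3L, and SPIC, a relative of SPI1 in macrophages. None of the 3 was called in any comparison by limma. At an unadjusted p under 0.05 the counts were 0 in liver, 1 in lung and 1 between lung and liver derivatives. Among all genes the shares at that p were 18.5%, 42.3% and 38.5%. ETV3 had 8.85, 8.94 and 8.95 in liver arrays and 8.90, 8.45 and 8.56 in lung arrays, against 8.93, 8.87, 8.83 and 8.59 in parental arrays. ETV3L had 6.97, 6.95 and 6.91 in liver arrays and 6.71, 6.92 and 6.88 in lung arrays, against 6.85, 6.75, 7.07 and 6.73 in parental arrays. Both genes overlapped between groups in the comparisons with parental cells. SPIC had 5.17, 4.87 and 5.51 in liver arrays and 4.58, 4.11 and 5.41 in lung arrays, against 5.17, 5.51, 5.25 and 5.47 in parental arrays (lung difference -0.65, adjusted p = 0.0721, with -0.61 without parental array 4 and -0.77 against it alone, neither called).

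Upstream of the ternary complex factors, few genes passed the test. Of 7 measured genes of the RAS-ERK pathway none was called in liver derivatives (1 at an unadjusted p under 0.05, median difference 0.04, where that of all genes was 0.0096) and none in lung derivatives (2 at an unadjusted p under 0.05, median -0.08, where that of all genes was -0.0056). At that unadjusted p were 18.5% of all genes in liver and 42.3% in lung derivatives. PTPN11, the phosphatase SHP2 that relays receptor signals to RAS, was the 1 gene called between lung and liver derivatives (-0.31). Over all genes 7.83%, 30.1% and 19.9% were called in liver, in lung and between lung and liver derivatives. Without parental array 4, HRAS (-0.15) and PTPN11 (-0.31) were called lower in lung derivatives, and against that array alone 0 of 7 were called.

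Of 9 measured SRF and ELK target genes, 2 fell in liver derivatives: the AP-1 subunit JUN (-0.48, adjusted p = 0.0104) and the antiproliferative gene BTG2 (-0.47, adjusted p = 0.0154). In lung derivatives 2 rose and 3 fell. Of all genes, 3.50% were called lower in liver derivatives, and 12.9% were called higher and 17.3% lower in lung derivatives. The zinc finger factor EGR2 averaged 8.46 ± 0.49 in lung derivatives (SD, n = 3) and 7.17 ± 0.18 in parental cells (SD, n = 4), a difference of 1.29 (limma adjusted p = 0.000990), and the ERK phosphatase DUSP5 was 0.60 higher (adjusted p = 0.0161). JUN (-0.64, adjusted p = 0.00136), the matricellular gene CCN1 (-0.33) and the focal adhesion gene VCL (-0.20) were lower. The median over the 9 genes was 0.01 in liver and -0.05 in lung derivatives. Without parental array 4 the lung counts were again 2 and 3, and against that array alone 0 of 9 were called.

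Of 10 measured ETS1 and FLI1 target genes, PLAU, which encodes the urokinase protease, was the 1 called in liver derivatives. It averaged 6.90 ± 0.16 in liver derivatives (SD, n = 3) and 7.70 ± 0.14 in parental cells (SD, n = 4), a fall of 1.74-fold (-0.80, limma adjusted p = 0.00163). In lung derivatives PLAU was 0.36 lower on the log2 scale (adjusted p = 0.0449), and the matrix metalloproteinases MMP3 (0.49, adjusted p = 0.0121), MMP10 (0.25) and MMP13 (0.23) were higher. The list's median difference was 0.02 in liver and 0.17 in lung derivatives. The share of all genes called was 7.83% in liver and 30.1% in lung derivatives. Without parental array 4 the lung calls were 4 higher (MMP3, MMP10, MMP13 and CD34) and 0 lower, and against that array alone 0 of 10.

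Of 7 measured targets of the epithelial ETS factors none was called in liver derivatives by limma (median 0.02). None had an unadjusted p under 0.05, where 18.5% of all genes had one. The keratins KRT8 and KRT18, which fill simple epithelial cells, were among those not called. In lung derivatives the cornified envelope genes SPRR1A (0.44, adjusted p = 0.0117), SPRR1B (0.34) and SPRR3 (0.23) were called higher (median 0.23). Among all genes 12.9% were called higher there. SPRR1A and SPRR1B were called without parental array 4, and 0 of 7 against that array alone. SPRR genes are near-identical copies in part, so their rows may share signal.

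Among 9 measured epithelial regulators and junction genes, RAB25, a trafficking GTPase of epithelial cells, had the largest change. It averaged 9.18 ± 0.08 in liver derivatives (SD, n = 3) and 6.17 ± 0.12 in parental cells (SD, n = 4), a difference of 3.01 (limma adjusted p = 1.08e-09), and 10.17 ± 0.06 in lung derivatives (SD, n = 3), 15.96-fold above parental cells. The desmosomal gene PKP1 rose in both (0.50 in liver and 0.62 in lung derivatives) and the receptor kinase gene ERBB3 fell in both (-0.48 and -0.34). In all, 2 were called higher and 1 lower in liver derivatives and 4 higher and 2 lower in lung derivatives. The shares of all genes were 4.33% higher and 3.50% lower in liver, and 12.9% higher and 17.3% lower in lung derivatives. Without parental array 4 the lung calls were 3 higher and 3 lower, and against that array alone RAB25 (4.04) and OVOL1 (0.58) were called higher.

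Of 7 measured SPI1 target genes, the lysozyme gene LYZ was called in liver derivatives (0.97, adjusted p = 0.00163). In lung derivatives 4 were higher, among them LYZ (1.64), the cathepsin gene CTSS (0.39) and MPEG1 (0.54), and FCER1G was lower (-0.46), while SPI1 itself was not called. Of all genes, 4.33% were called higher in liver derivatives, and 12.9% were called higher and 17.3% lower in lung derivatives. There were 4 higher and 2 lower in lung derivatives without parental array 4. Against that array alone LYZ was called (1.18) and the other 6 were not.

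Markers of other cell types that express ETS factors were read beside these results. Of 6 measured endothelial markers none was called in liver derivatives, and none had an unadjusted p under 0.05, where 18.5% of all genes had one. The mean level of the 6 markers was 6.90 to 7.06 in liver, 7.03 to 7.05 in lung and 6.90 to 6.999 in parental arrays. All but SELE are also on the ETS1 and FLI1 target list. In lung derivatives SELE was called (0.29, adjusted p = 0.0434). SELE and CD34 were called higher without parental array 4, and against that array alone 0 of 6 were (SELE 0.25, adjusted p = 0.328). Of 13 measured leukocyte markers 4 were higher in liver derivatives, CD5 (1.70), CD4 (0.99), LYZ (0.97) and CD6 (0.47), and 7 were higher in lung derivatives. Of all genes, 4.33% were called higher in liver and 12.9% in lung derivatives. The lung calls were 9 higher and 1 lower (LAPTM5) without parental array 4, and against that array alone 5 higher (CD5, LYZ, CD4, CD3D and CD6). LYZ and LAPTM5 are on the SPI1 target list too. The mean level of the 13 leukocyte markers was 6.98 to 7.05 in liver and 7.15 to 7.24 in lung arrays, against 6.69 to 6.78 in parental arrays. The pan-leukocyte gene PTPRC averaged 5.06 ± 0.08 in liver and 5.23 ± 0.03 in lung derivatives (SD, n = 3 each), against 5.04 ± 0.07 in parental cells (SD, n = 4). It was called in lung derivatives (0.19, adjusted p = 0.0395), though not against parental array 4 alone (0.22, adjusted p = 0.175), and not in liver derivatives. The part of other cells in the FLI1 result was not tested. Of 7 fibroblast and stromal markers, LUM was lower in liver derivatives (-1.97), and in lung derivatives 3 were higher and LUM was lower (-0.62). These lung counts were the same without parental array 4, and against that array alone LUM was the 1 called (-1.15). Of all genes, 3.50% were called lower in liver derivatives, and 12.9% were called higher and 17.3% lower in lung derivatives. The mean level of the 7 stromal markers was 6.73 to 6.76 in liver and 6.93 to 7.20 in lung arrays. In parental arrays it was 6.86 to 7.09. For the colon epithelial label, KRT8 averaged 12.77 ± 0.06 in liver, 12.82 ± 0.10 in lung and 12.75 ± 0.04 in parental arrays, and TSPAN8 (-1.12 in liver, -0.43 in lung derivatives) and the stem cell gene LGR5 (-0.81 and -1.27) were the 2 of 8 called. Both were called in lung derivatives without parental array 4, and LGR5 alone (-1.11) against that array. The mean level of the 8 colon epithelial markers was 8.31 to 8.35 in liver and 8.30 to 8.33 in lung arrays. In parental arrays it was higher, at 8.46 to 8.56. The shares of all genes called lower were 3.50% in liver and 17.3% in lung derivatives.

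For each called factor, the genes with the most similar profile over the 10 arrays were found as the smallest root mean square difference of log2 values relative to the parental mean, as a description with no test. Nearest to FLI1 were the receptor gene NOTCH2 (0.19), the retinoic acid binding protein gene CRABP2 (0.19) and the actin-binding gene NEXN (0.21), whose liver differences were 1.15, 1.42 and 1.32 where that of FLI1 was 1.43. Nearest to ELF3 were SEMA4G (0.053), UBASH3B (0.092) and ALG14 (0.094), and nearest to EHF were MPP7 (0.085), H2AC21 (0.086) and SLC43A1 (0.091). For ELF5 they were LINC01555, OR9K2 and CARD18 (0.089 to 0.10), for ELK3 TAS2R42, MS4A1 and CDA (0.074 to 0.081), and for ELK4 ATF7, C2CD3 and SIRT1 (0.037 to 0.038).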

How the data were processed

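RNA from 4 parental, 3 liver and 3 lung derivative cultures of SW620 was measured on arrays. The deposited values are log2 expression levels. Per the submitters' processing notes they come from RMA in the oligo package, and the version and summary level are not given in the sources used here. They lay between 2.55 and 13.99 in 65535 rows. Of these, 56949 had at least 1 gene symbol, 54806 had 1 and 2143 had several (not used for genes). Most named genes (4660 of 4713) lie on chromosomes 1, 10, 11 and 12, and the row count is that of a spreadsheet limit, so the table may be incomplete. Ranks and shares refer to the genes in it. Of 19 other ETS genes listed, 3 were measured. No detection calls were used and no row was filtered, so all 94 rows of the 9 factors were tested.

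Groups were compared with limma 3.58.1 (R 4.3.3), fitting all 10 arrays together with a mean for each group, eBayes and two-sided tests. Rows were tested, and so were genes as the mean of their rows (the median gene has 10). P-values were adjusted (Benjamini-Hochberg) over all rows or all genes, with calls under 0.05. The code was tested on simulated data. The members and lists were chosen with earlier results of these data known. Named were all 9 factors, other measured ETS genes, up to 4 called genes per list and comparison, the 3 genes of nearest profile, and each factor's brightest row and rows of extreme change. Genes outside that rule are said to be chosen after their values were seen or are part of the count of a list. Alternatives were renormalization, median centring, a filter on the lowest 20% by mean, only the compared groups, an array set term, a replicate block, the brightest row, and leaving out each array. The list counts without parental array 4 and with the set term were added after seeing the data. Paralogous genes may share probe signal.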

Additional observations from a re-analysis of the deposited data

Results flagged for a closer look

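The ELK3 level in parental array 4 was 8.50, while the other 3 parental arrays had 8.09 to 8.15, a gap large for a group of 4. Chance flags about 1 in 20 such groups, and 9 genes were looked at.

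In all, 4 factors differed between lung and liver derivatives by the limma test of that difference, which is the same as the difference between their changes from parental cells. Lung minus liver was -0.77 for FLI1, 0.26 for ELF3, 0.26 for EHF and 0.36 for ELK3. FLI1 was raised in both derivatives but less in lung, and ELF3 was lowered in both but less in lung. With any 1 lung or liver array left out, FLI1 stayed called and ELF3 and ELK3 were not called. EHF was called only when the array left out was lung array 2. With the array set in the fit none of these 4 differences was called.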

How the results depend on the processing

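The liver calls of FLI1, ELF3 and EHF held in every alternative that gave a value, with log2 differences of 1.38 to 1.69, -0.78 to -0.46 and -0.61 to -0.42. The filter on the lowest 20% by mean removed FLI1 and ELF5. Over the 12 called differences of the 9 factors, 109 of 160 alternatives kept call and direction, 50 lost the call and 1 reversed. Of all 27 differences, 23 of 363 alternatives reversed and 10 gained a call. For liver against parental, the array set term, the replicate block and leaving out parental array 4 gave the same log2 difference. The alternatives counted are therefore not all separate.

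In lung against parental, the called factors numbered 3 after median centring, 2 with only the compared groups, 2 with the array set in the fit and 1 with the brightest rows. Called ETS rows numbered 5 with only the compared groups and 0 with the array set in the fit. With that set 14 ETS rows had an unadjusted p under 0.05 in limma, where 15.95% of all rows did. All called rows were 2120 with only the compared groups, 635 with the array set in the fit and 12420 with the replicate block. Between lung and liver, the array set left 36 of all rows, 0 ETS rows (14 at an unadjusted p under 0.05) and 0 factors (3 at an unadjusted p under 0.05). Of all rows, 8.57% had an unadjusted p under 0.05 there.

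Same-numbered arrays did not deviate together (correlations of deviations -0.117 to 0.0404), so the replicate numbers do not pair samples. With the replicate block, 786 rows and 7 ETS rows were called in liver against parental.

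Leaving out 1 array at a time gave 527 to 1464 rows, 4 to 13 ETS rows and 3 factors (the same 3 each time) in liver against parental, 2519 to 16222 rows, 4 to 26 ETS rows and 1 to 6 factors in lung against parental, and 0 to 3574 rows, 0 to 13 ETS rows and 1 to 3 factors between lung and liver. Without parental array 1 or 2 FLI1 alone was called in lung derivatives, and without parental array 4 the count was 6. Between lung and liver no row was called without liver array 2 or 3 in limma, where 14430 and 14800 had an unadjusted p under 0.05, 26 and 27 of them ETS rows.

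Of the reversals, those with the array set in the fit were ELK3 (0.086) and SPI1 (-0.012) in liver, ETS1 (-0.29), ETV6 (-0.10) and SPI1 (0.088) in lung, and ETS1 (-0.044), ELK3 (-0.028) and SPI1 (0.10) between lung and liver. The replicate block turned ELK3 (0.086) and SPI1 (-0.012) in liver, by the same values because it too sets parental array 4 apart. The brightest row turned ELK3 (0.069) and ELK4 (0.13) in liver, EHF (0.082) and SPI1 (0.25) in lung, and ETV6 (0.061) and SPI1 (0.23) between lung and liver. With 1 array left out, the ranges were -0.054 to 0.086 for ELK3, -0.048 to 0.035 for ELK4 and -0.0145 to 0.13 for SPI1 in liver, and -0.076 to 0.19 for ETS1 in lung. The cause was not tested. With 3 or 4 arrays a group and no detection calls, small differences in dim rows cannot be resolved.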
